A study of Drosophila melanogaster with 6 samples.

Results

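The 8 genes described here are the *Drosophila* genes of the ATF4 branch of the integrated stress response and of the one-carbon metabolism tied to it: *PEK*, *crc*, *Thor*, *Sesn*, *AsnS*, *aay*, *Shmt* and *Nmdmc*. They were listed by symbol and matched to FlyBase gene identifiers among the 17559 genes counted. RNA was sequenced from wing discs of wandering larvae of the last instar that expressed an RNAi against *Nup98-96*, the gene encoding the nucleoporins Nup98 and Nup96 of the nuclear pore, and from control discs expressing an RNAi against *white*, an eye pigment transporter gene. There were 3 libraries in each group, each from a pool of 40 discs. Both groups carried *UAS-P35* (the baculovirus caspase inhibitor, which keeps cells that have started apoptosis from completing it), the *ap-Gal4* driver, *UAS-GFP* and the temperature-sensitive repressor *tub-Gal80TS*, and differed in the RNAi transgene, which was HM05048 for *Nup98-96* and JF01540 for *white*. Larvae were kept for 4 days at 18°C and then for 72 h at 28°C, where the repressor is inactive. Because *ap-Gal4* is active in the dorsal compartment, every pool also held ventral cells in which no transgene was driven.

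In the integrated stress response, kinases that sense stress phosphorylate eIF2alpha, which lowers general translation while a few mRNAs with upstream open reading frames are translated more. In flies the kinases are PEK, the homologue of mammalian PERK, which is activated at the endoplasmic reticulum, and Gcn2, which is activated by uncharged tRNA. The best known of the favoured mRNAs is *crc*, which encodes the fly ATF4. ATF4 then drives genes of amino acid synthesis, of serine-linked one-carbon metabolism and of translational control. Control of *crc* by upstream open reading frames acts on translation, which RNA sequencing does not measure.

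The libraries held between 93428696 and 110330112 counted reads in the control and between 70342787 and 100205246 in *Nup98-96* RNAi. Levels are given as CPM, a gene's share of the reads of its library scaled to the same total in each, after TMM normalization, and a gene was called when its adjusted p was under 0.05 (edgeR's quasi-likelihood test, Benjamini-Hochberg over 7942 tested genes) and its log2 fold change, *Nup98-96* RNAi over *white* RNAi, was at least 0.5 in size. The targeted gene, *Nup98-96*, was at 331, 335 and 316 CPM in the control libraries and at 317, 302 and 314 CPM in the *Nup98-96* RNAi libraries, which was not called (log2 fold change -0.07, adjusted p = 0.118), so the mRNA level in whole discs does not show a knockdown, and the groups are called by their RNAi below. The other targeted gene, *w* (*white*), was at 544 ± 50.9 CPM in *white* RNAi and at 998 ± 119 CPM in *Nup98-96* RNAi (0.88, adjusted p = 0.000326). All 9 wing disc epithelium markers were above 1 CPM in every library, with a summed level of 2784 to 2934 CPM in the control and 2088 to 2144 CPM in *Nup98-96* RNAi, and 4 of the 9 were called lower. The summed level of 7 fat body genes (larval serum proteins and other secreted proteins, none at 0 in every library) was 3699 CPM in control replicate 1 and 23.3 to 92.3 CPM in the other 5 libraries. The 4 trachea markers split, with *verm* (log2 fold change 0.69) and *serp* (0.77), which supply most of their summed level, called higher and *trh* (-0.85) and *btl* (-0.57) called lower. Of 5 myoblast markers, 3 were called lower (summed level 237 to 265 CPM in the control and 168 to 177 CPM in *Nup98-96* RNAi). Of 4 nervous system markers, *elav* was the only one tested and was called higher (52.9 ± 2.75 to 80.7 ± 0.751 CPM), while the others were low in every library. The summed markers of hemocytes (5 genes) were 16.5 to 32.1 CPM and those of salivary gland (5 genes) 2.51 to 18.2 CPM over all libraries, with overlapping sums. Of the hemocyte markers 3 were tested. *srp* was called lower (3.11 ± 1.38 to 0.643 ± 0.250 CPM, log2 fold change -2.27, adjusted p = 0.00289, edgeR), and *Hml* and *Pxn* were not called. *NimC1* (mean 0.877 to 0.238 CPM) and *He* (0.880 to 0.264 CPM) were too low to be tested, and were lower in *Nup98-96* RNAi with no overlap. The part of these differences in the results below was not tested. Nothing stated that the pools came from separate crosses, so p-values measure the spread between pools.

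Of the 8 genes, all passed the filter on low counts, *aay* through its control libraries only. In *Nup98-96* RNAi 4 were called higher (*PEK*, *Thor*, *Nmdmc* and *AsnS*), 1 was called lower (*aay*) and 3 were not called (*crc*, *Shmt* and *Sesn*). The called genes were 62.5% of the 8, beside 26.6% of all tested genes called in either direction, 15.3% called higher and 11.2% called lower. Their median log2 fold change was 0.50, beside 0.001 over all tested genes. The 8 genes were chosen with earlier results of these data known, so neither comparison tests whether they changed more often than other genes. With no minimum fold change 7 of the 8 passed the adjusted p, as did 65.8% of all tested genes. The *Nup98-96* RNAi libraries lay wholly above the control libraries for 6 genes and wholly below for 1 gene. Groups that do not overlap were also common in the table at large, at 72.8% of tested genes (36.6% above and 36.2% below). In discs that mix driven and undriven cells, fewer cells of a type and less RNA per cell cannot be told apart.

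**Figure D1:**
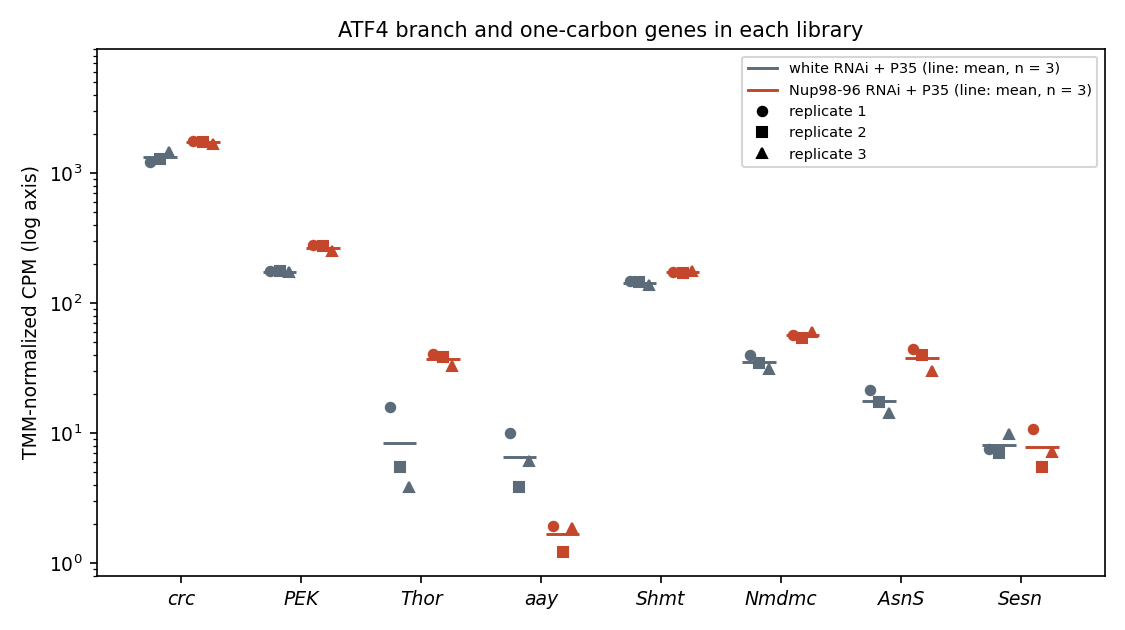
Level of each of the 8 genes in every library, as TMM-normalized CPM on a log axis, with *white* RNAi + P35 in grey, *Nup98-96* RNAi + P35 in red, marker shape giving the replicate and the line the mean of 3 libraries. *Thor*, *AsnS*, *PEK* and *Nmdmc* were called higher, *aay* was called lower, and only the groups of *Sesn* overlapped.

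*PEK* (FBgn0037327), the eIF2alpha kinase of the endoplasmic reticulum, rose in *Nup98-96* RNAi. The gene lies on the minus strand of chromosome 3R from 5458563 to 5464753 (BDGP6), and the count covers all of its exons. The control libraries held 176, 177 and 172 CPM and the *Nup98-96* RNAi libraries 279, 273 and 252 CPM. The mean went from 175 ± 2.53 to 268 ± 14.1 CPM (SD, n = 3), a log2 fold change of 0.61 with a standard error (SE) of 0.05 (adjusted p = 3.91e-05, edgeR), or 1.53-fold. *PEK* had the smallest relative spread of the 8 genes in the control, a coefficient of variation of 1.45%. The other kinase, *Gcn2*, named after its values were seen, went from 103 ± 1.29 to 138 ± 2.81 CPM, below the minimum fold change (log2 0.43, adjusted p = 3.35e-05). Per length of exon, *PEK* held 2.01 to 2.02 times the level of *Gcn2* in the control and 2.20 to 2.34 times in *Nup98-96* RNAi, with no overlap.

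Among 11 other genes of eIF2alpha phosphorylation and nucleotide exchange, all tested, 1 was called higher and none lower, with a median log2 fold change of 0.04. The 1 called gene was *PPP1R15*, which encodes the regulatory subunit that directs a phosphatase to eIF2alpha and so acts against the kinases. It stood at 40.9, 42.1 and 40.9 CPM in the control and at 70.4, 69.5 and 62.7 CPM in *Nup98-96* RNAi (log2 fold change 0.71, SE 0.05, adjusted p = 3.71e-05, edgeR). For the count of 0 called lower, 3 genes were lower at an unadjusted p under 0.05, and DESeq2 and limma-voom also called 0. With no minimum fold change 7 of the 11 passed the adjusted p (4 higher and 3 lower), beside 65.8% of all tested genes. Both *PEK* and *PPP1R15* were therefore higher, the kinase by 1.53-fold and the phosphatase subunit by 1.64-fold.

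*crc* (FBgn0000370; chromosome 2L, 21310866 to 21319527, plus strand), the fly ATF4, had the highest level per length of the 8 genes in both groups. Its libraries held 1231, 1286 and 1452 CPM in the control and 1766, 1746 and 1690 CPM in *Nup98-96* RNAi. All 3 *Nup98-96* RNAi libraries were above all 3 control libraries, and the means were 1323 ± 115.2 and 1734 ± 39.1 CPM (SD, n = 3). The log2 fold change of 0.39 (SE 0.06, adjusted p = 0.00123, edgeR) was below the minimum of 0.5, so *crc* was not called, although the difference exceeded the spread between replicates. In the annotation used for gene lengths, 73.5% of the exon bases of *crc* also lie in exons of *CG46314* on the same strand, a gene that has no count of its own here, so that reads of the pair cannot be told apart.

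Of 18 other genes encoding bZip transcription factors, the family of ATF4, 16 were tested, 7 were called higher and 2 lower, with a median log2 fold change of 0.39. The highest were *Atf3*, a stress-responsive factor, which went from 24.7 ± 6.60 to 89.5 ± 3.26 CPM (log2 fold change 1.86, SE 0.18), and *Irbp18*, a C/EBP-type factor, which went from 11.2 ± 0.134 to 38.9 ± 3.19 CPM (1.80, SE 0.06). The lowest were *CrebA*, a regulator of secretory pathway genes, which went from 211 ± 42.6 to 73.3 ± 5.37 CPM (-1.53, SE 0.14), and *Xbp1*, the transcription factor of the IRE1 branch of the unfolded protein response, which went from 346 ± 50.9 to 232 ± 5.07 CPM (-0.58, SE 0.10). Their adjusted p-values lay between 1.76e-06 and 0.00216 (edgeR). Without control replicate 3, *Xbp1* was no longer called (log2 fold change -0.485). Per length of exon, the ratio of *crc* to *Xrp1*, another member of the family that was chosen for this ratio after its values were seen, was 2.80, 2.83 and 3.00 in the control and 1.93, 1.90 and 1.875 in *Nup98-96* RNAi. The groups did not overlap, with fewer *crc* reads per *Xrp1* read in *Nup98-96* RNAi.

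Over the 6 libraries, the genes whose log2 CPM followed that of *crc* most closely were *TSG101* (Pearson r = 0.999), *CG9689* (0.998), *Hydr2* (0.998), *mwh* (0.996) and *CG10089* (0.995). These 5 genes went up with log2 fold changes of 0.26 to 0.84, and 3 of them (*CG9689*, *mwh* and *CG10089*) were called. The points of each correlation share the split into 2 groups and the library scaling, and the values serve as a description.

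*Thor* (FBgn0261560; chromosome 2L, 3478434 to 3479612, plus strand) encodes 4E-BP, which binds the cap-binding protein eIF4E and blocks its assembly into the translation initiation complex. It rose in *Nup98-96* RNAi. The control libraries held 15.8, 5.46 and 3.84 CPM and the *Nup98-96* RNAi libraries 40.6, 38.5 and 33.1 CPM. Every *Nup98-96* RNAi library was above every control library, and control replicate 1, the library with the high fat body genes, was 3.40 times the mean of the other control libraries. The mean went from 8.36 ± 6.49 to 37.4 ± 3.86 CPM (SD, n = 3), a log2 fold change of 2.16 (SE 0.49, adjusted p = 0.00717, edgeR) or 4.48-fold. Without control replicate 1 the log2 fold change was 3.01 (adjusted p = 3.73e-06). The lowest count behind these values was 407 reads, which gives a counting error of 4.96%, while the coefficient of variation among control libraries was 77.6%.

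The genes of the complex that 4E-BP acts on differed much less. Of 9 genes of cap binding and the eIF4F complex, 8 were tested and none was called in either direction, with log2 fold changes from -0.25 to 0.22 and a median of -0.10. For that count of 0, 2 genes were higher and 4 lower at an unadjusted p under 0.05 in edgeR, and DESeq2 and limma-voom also called 0. With no minimum fold change 6 of the 8 passed the adjusted p (2 higher and 4 lower), beside 65.8% of all tested genes. *eIF4E1*, named after its values were seen, was at 478 ± 22.9 CPM in the control and at 441 ± 3.01 CPM in *Nup98-96* RNAi (log2 fold change -0.12, adjusted p = 0.0343, edgeR). Per length of exon, *Thor* stood at 0.103, 0.0338 and 0.0227 times *eIF4E1* in the control and at 0.273, 0.260 and 0.221 times in *Nup98-96* RNAi.

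*Sesn* (FBgn0034897; chromosome 2R, 23713900 to 23734846, plus strand) encodes Sestrin, a stress-inducible protein that restrains TOR complex 1 through the GATOR complexes. It was at 7.56, 6.99 and 9.92 CPM in the control and at 10.7, 5.48 and 7.22 CPM in *Nup98-96* RNAi. The groups overlapped, with the highest and the lowest library both in *Nup98-96* RNAi, and the log2 fold change was -0.07 (SE 0.25, adjusted p = 0.822, edgeR). It turned to 0.09 without control replicate 3 and to 0.16 without *Nup98-96* RNAi replicate 2, so no direction can be given. In the annotation 65.1% of its exon bases lie in exons of *CG46429* on the same strand, which has no count of its own here.

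Among 26 other genes of TOR, GATOR and AMPK signalling, all tested, 3 were called higher and 3 lower, with a median log2 fold change of -0.04. Of those called lower, *scyl*, named after its values were seen, was at -0.51 and lost its call without *Nup98-96* RNAi replicate 2 or 3 (-0.49 for both) and under 2 other scalings, and in a test of whether the change exceeded 0.5 the count called lower was 0. The highest were *REPTOR*, a bZip factor held back by TOR complex 1, which went from 33.7 ± 7.58 to 98.7 ± 5.84 CPM (log2 fold change 1.55, SE 0.15), and *PRAS40*, which encodes an inhibitory component of TOR complex 1 (0.87, SE 0.08). The lowest were *chrb*, an inhibitor of TOR signalling of the REDD family (-0.61, SE 0.07), and *foxo*, the transcription factor restrained by insulin signalling (-0.59, SE 0.06). Adjusted p-values were between 0.000111 and 0.000351 (edgeR). Negative regulators of TOR were thus found among the genes called higher and among those called lower. FOXO, REPTOR and ATF4 are each known to act on *Thor*, and the part of these genes in its change was not tested.

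*AsnS* (FBgn0041607; chromosome 3L, 21173118 to 21174973, plus strand, a single exon) encodes asparagine synthetase, the classical ATF4 target of amino acid shortage in mammals. The control libraries held 21.5, 17.3 and 14.3 CPM and the *Nup98-96* RNAi libraries 44.8, 39.8 and 29.9 CPM. The groups did not overlap, and both held a spread of about the same relative size, with a coefficient of variation of 20.3% in the control and 19.8% in *Nup98-96* RNAi. The mean went from 17.7 ± 3.60 to 38.2 ± 7.57 CPM (SD, n = 3), a log2 fold change of 1.11 (SE 0.19, adjusted p = 0.00187, edgeR) or 2.15-fold.

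The other genes that supply, charge or carry amino acids went different ways. None of the 20 cytosolic aminoacyl-tRNA synthetase genes, all tested, was called, with log2 fold changes from -0.14 to 0.41 and a median of 0.15. For that count of 0, 11 were higher and 2 lower at an unadjusted p under 0.05 in edgeR, and DESeq2 and limma-voom also called 0. With no minimum fold change 13 of the 20 passed the adjusted p (11 higher and 2 lower), beside 65.8% of all tested genes. The count of 0 thus came from the minimum fold change. Per length of exon, *AsnS* stood at 0.150, 0.117 and 0.0944 times *AsnRS*, the asparaginyl-tRNA synthetase gene, in the control and at 0.294, 0.274 and 0.197 times in *Nup98-96* RNAi. *AsnS* was thus higher relative to the synthetase that uses its product, a pair chosen after the values were seen. Of 12 genes of glutamate, aspartate and proline synthesis, 10 were tested, 2 were called higher (*Gdh*, glutamate dehydrogenase, log2 fold change 0.90, and *Gs2*, glutamine synthetase, 0.76) and 3 lower, with a median of -0.23. The lowest were *P5CS*, which makes the precursor of proline (-3.55), and *Oat*, ornithine aminotransferase (-2.88). *P5CS* was at 9.62 CPM in control replicate 1 and at 0.578 and 0.453 CPM in the other controls, and without that library it was too low to be tested. The call of *P5CS* was also lost whichever *Nup98-96* RNAi library was left out (-3.92 to -3.29). *Gs2* lost its call when either of control replicates 2 (0.70) and 3 (0.59), or *Nup98-96* RNAi replicate 2 (0.525), was left out.

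Of 10 amino acid transporter genes, 9 were tested, 1 was called higher and 4 lower, with a median log2 fold change of -0.56. The cationic amino acid transporter gene *CG5535* went from 16.8 ± 2.23 to 58.4 ± 0.874 CPM (log2 fold change 1.80, SE 0.09). The lowest were *acs*, which went from 4.96 ± 0.256 to 0.369 ± 0.130 CPM (-3.76, SE 0.28), and *mnd*, the minidiscs leucine transporter, which went from 83.0 ± 5.85 to 41.3 ± 2.80 CPM (-1.01, SE 0.07). Adjusted p-values for the 3 genes lay between 9.11e-06 and 3.91e-05 (edgeR).

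*aay* (FBgn0023129; chromosome 3L, 9423253 to 9424781, plus strand, a single exon) encodes astray, the phosphoserine phosphatase that catalyses the last step of serine synthesis from the glycolytic intermediate 3-phosphoglycerate. It was the only one of the 8 genes that fell. The control libraries held 9.94, 3.83 and 6.05 CPM and the *Nup98-96* RNAi libraries 1.92, 1.23 and 1.86 CPM. All *Nup98-96* RNAi libraries were below all control libraries, and control replicate 1 was 2.01 times the mean of the other controls. The mean went from 6.61 ± 3.09 to 1.67 ± 0.385 CPM (SD, n = 3), a log2 fold change of -1.99 (SE 0.37, adjusted p = 0.00291, edgeR). Without control replicate 1 it was -1.57 (adjusted p = 0.00161). The lowest count was 124 reads, with a counting error of 8.98%. The *Nup98-96* RNAi libraries held 136, 124 and 162 reads, under the filter threshold of 200 normalized counts, so *aay* was tested through its control libraries. It kept its call with no filter on low counts.

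The enzymes of the preceding steps of the same route fell too. *CG6287*, which encodes D-3-phosphoglycerate dehydrogenase, the first step, was at 167, 202 and 224 CPM in the control and at 18.9, 18.3 and 20.8 CPM in *Nup98-96* RNAi (log2 fold change -3.35, SE 0.12, adjusted p = 1.64e-06, edgeR). *CG11899*, which encodes phosphoserine aminotransferase, the second step, was at 172, 194 and 214 CPM in the control and at 38.0, 38.5 and 39.4 CPM in *Nup98-96* RNAi (-2.32, SE 0.08, adjusted p = 1.56e-06). All 3 genes of the route from 3-phosphoglycerate to serine were thus lower in all 3 *Nup98-96* RNAi libraries. Control replicate 1 was the lowest control for *CG6287* and *CG11899* and the highest for *aay*. *CG6287* and *CG11899* were the only called genes among 7 other genes of serine and glycine synthesis and cleavage, of which 6 were tested, with 0 called higher and a median log2 fold change of -1.16. For that count of 0, 1 gene, *Agxt*, an alanine-glyoxylate aminotransferase gene named after its values were seen, was higher at an unadjusted p under 0.05 (log2 fold change 1.05, adjusted p = 0.0538, edgeR), and DESeq2 and limma-voom each called 1. None of the genes of glycine cleavage, likewise named after their values were seen, was called. *CG7430* and *ppl* were at -0.01 and 0.25, *CG6415* was at -4.20 (adjusted p = 0.132) with 3.86 CPM in control replicate 1 and 0 in the other controls, and *CG3999* was too low to be tested. Per length of exon, *aay* stood at 0.0152 to 0.0444 times *CG11899* in the control and at 0.0245 to 0.0389 times in *Nup98-96* RNAi, with overlapping groups. Relative to *CG6287* it stood at 0.0159 to 0.0501 times in the control and at 0.0562 to 0.0855 times in *Nup98-96* RNAi, with no overlap, a mean ratio 2.44 times higher. Both ratios were formed after the values were seen.

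**Figure D2:**
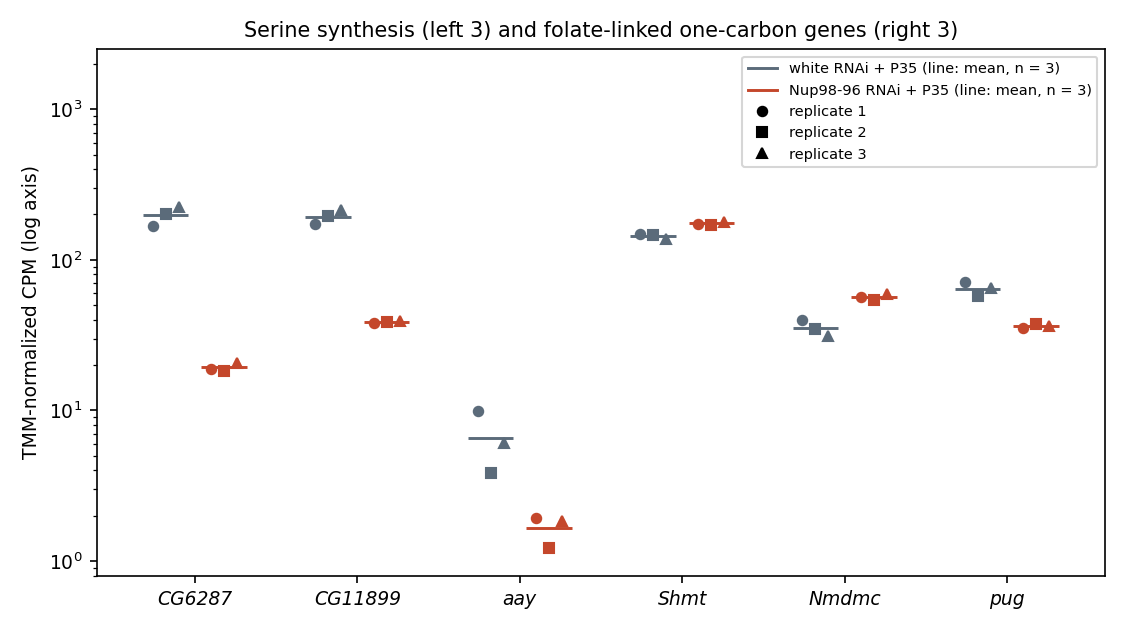
TMM-normalized CPM on a log axis in every library for the 3 genes of serine synthesis (*CG6287*, *CG11899*, *aay*) and 3 genes of folate-linked one-carbon metabolism (*Shmt*, *Nmdmc*, *pug*), grey for *white* RNAi + P35, red for *Nup98-96* RNAi + P35, with lines at the means of 3 libraries. The 3 serine synthesis genes and *pug* were called lower and *Nmdmc* was called higher, while *Shmt* was 1.211-fold higher and not called.

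*Shmt* (FBgn0029823; chromosome X, 5913067 to 5916797, minus strand) encodes serine hydroxymethyltransferase, which moves a carbon unit from serine to tetrahydrofolate and leaves glycine. It was at 149, 145 and 137 CPM in the control and at 174, 171 and 178 CPM in *Nup98-96* RNAi. The groups did not overlap and the difference exceeded the spread, from 144 ± 6.27 to 174 ± 3.35 CPM (SD, n = 3), but the log2 fold change of 0.28 (SE 0.04, adjusted p = 0.00104, edgeR) was below the minimum. Of its exon bases, 4.37% lie opposite *asRNA:CR44108*. Because counting did not use strand, reads there cannot be told apart.

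*Nmdmc* (FBgn0010222; chromosome 3R, 9042508 to 9050555, minus strand) encodes the NAD-dependent methylenetetrahydrofolate dehydrogenase and cyclohydrolase of the mitochondrion, which takes on the carbon unit that serine hydroxymethyltransferase delivers. The control libraries held 40.1, 34.8 and 31.3 CPM and the *Nup98-96* RNAi libraries 56.9, 54.2 and 59.5 CPM. Every *Nup98-96* RNAi library was above every control library. The mean went from 35.4 ± 4.44 to 56.9 ± 2.66 CPM (SD, n = 3), a log2 fold change of 0.68 (SE 0.09, adjusted p = 0.000576, edgeR) or 1.61-fold. When the test asked whether the change itself exceeded 0.5, rather than 0, *Nmdmc* was no longer called (adjusted p = 0.0594, edgeR's glmTreat).

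The cytosolic counterpart of *Nmdmc*, *pug*, went the other way. *pug* encodes the trifunctional C1-tetrahydrofolate synthase and was at 71.4, 57.2 and 64.5 CPM in the control and at 35.1, 37.3 and 36.4 CPM in *Nup98-96* RNAi (log2 fold change -0.83, SE 0.08, adjusted p = 0.000136, edgeR). The ratio of *Nmdmc* to *pug* per length of exon, formed after the values were seen, was 1.29, 1.395 and 1.11 in the control and 3.72, 3.33 and 3.75 in *Nup98-96* RNAi. In *Nup98-96* RNAi the mean ratio was 2.84 times that of the control. That its groups did not overlap follows from the genes themselves, which went opposite ways with no overlap, and adds no result. *pug* was the only called gene of 9 other folate cycle genes, of which 7 were tested, with 0 called higher and a median of -0.11. For that count of 0, 1 gene was higher at an unadjusted p under 0.05 in edgeR and DESeq2 and limma-voom also called 0. That gene was *Ts*, thymidylate synthase, named after its values were seen, which was below the minimum fold change (0.41, adjusted p = 0.00128). The count of folate cycle genes called lower was 2 without control replicate 3.

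Carbon units from folate feed the methionine cycle and purine synthesis. Of 11 genes of the methionine cycle and transsulfuration, all tested, 2 were called higher and 2 lower, with a median log2 fold change of -0.07. *Sam-S*, the S-adenosylmethionine synthetase gene, was at 436, 426 and 398 CPM in the control and at 701 CPM in each *Nup98-96* RNAi library (log2 fold change 0.74, SE 0.04, adjusted p = 9.19e-06, edgeR). The other called genes were at low levels. *AhcyL2* (0.82) lost its call when control replicate 2 (0.77) or either of *Nup98-96* RNAi replicates 1 and 2 (0.81 for both) was left out. *Bhmt* was at -0.57, and *CG10621* (-2.20) stood at 3.87 CPM in control replicate 1 against 0.712 and 0.575 CPM in the other controls. *CG10621* was too low to be tested without that library and was not called with any *Nup98-96* RNAi library left out (-2.41 to -2.07). Of 10 purine synthesis genes, all tested, 1 was called higher and 0 lower, with a median of 0.09. It was *Adss*, adenylosuccinate synthetase (131 ± 4.28 to 207 ± 4.08 CPM, log2 fold change 0.66, adjusted p = 1.22e-05, edgeR). For the count of 0, 1 gene was lower at an unadjusted p under 0.05, DESeq2 called 1 and limma-voom 0. The gene at the unadjusted p was *Prat2*, named after its values were seen (-3.84, adjusted p = 0.0532, edgeR). It stood at 7.12 CPM in control replicate 1 against 0.144 and 0.471 CPM in the other controls. The count called lower was also 1 without control replicate 2 or control replicate 3.

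**Figure D3:**
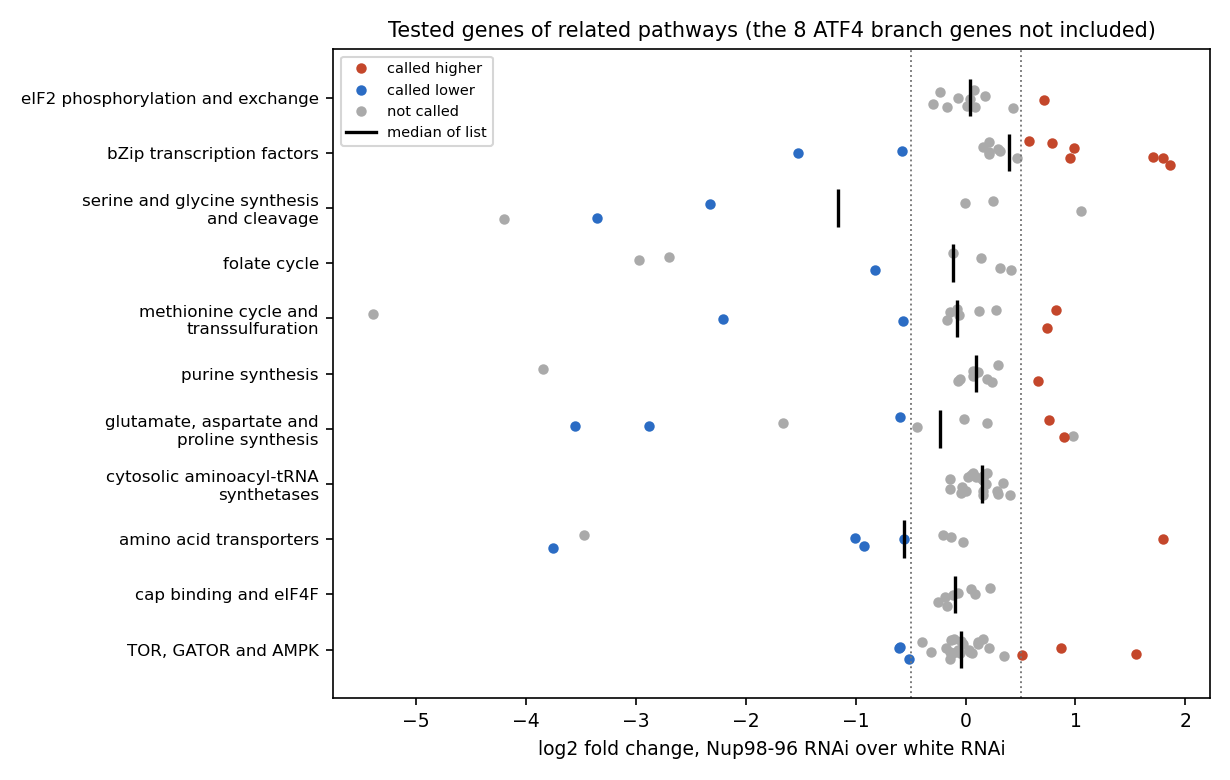
Log2 fold change of each tested gene of the 11 lists of related pathways, *Nup98-96* RNAi over *white* RNAi, with genes called higher in red, called lower in blue and not called in grey, black bars at list medians and dotted lines at the minimum fold change of 0.5 in each direction. The synthetase and cap-binding lists lie wholly between the dotted lines, while several other lists have called genes on both sides.

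Over the 11 lists together, 134 of 143 distinct genes were tested, 17 were called higher, 17 lower and 100 were not called. The share called was 25.4%, near the 26.6% of all tested genes, and the median log2 fold change was 0.04, so the related pathways as a whole were called about as often as other genes. In control replicate 1, 9 of these genes stood at least 5-fold above the mean of the other controls. Of those 9, 2 were called lower (*P5CS* and *CG10621*), 6 were not called and 1 was not tested. For the 8 genes described here the same ratio was 3.40 for *Thor*, 2.01 for *aay*, 1.36 for *AsnS*, between 1.01 and 1.36 for *PEK*, *Shmt* and *Nmdmc*, 0.899 for *crc* and 0.895 for *Sesn*.

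The genes can be ordered by level per length, as CPM per kilobase of exon. In the control *crc* (386 ± 33.7) was followed by *Shmt* (57.1 ± 2.49), *PEK* (35.9 ± 0.519), *Nmdmc* (23.3 ± 2.93), *Thor* (11.1 ± 8.59), *AsnS* (9.55 ± 1.94), *aay* (4.32 ± 2.02) and *Sesn* (1.71 ± 0.326; SD, n = 3). The libraries of *Thor* overlapped those of *Nmdmc*, *AsnS* and *aay*. In *Nup98-96* RNAi the order was *crc* (507 ± 11.4), *Shmt* (69.2 ± 1.33), *PEK* (55.0 ± 2.89), *Thor* (49.5 ± 5.11), *Nmdmc* (37.5 ± 1.76), *AsnS* (20.6 ± 4.08), *Sesn* (1.64 ± 0.556) and *aay* (1.09 ± 0.251). There *Thor* overlapped *PEK* and no longer *Nmdmc*, and *Sesn* overlapped *aay*. The relative spread was at most 12.5% in both groups for *crc*, *PEK*, *Shmt* and *Nmdmc*, and in the control it was wider for *AsnS*, *Sesn*, *aay* and *Thor*, which had the lowest levels per length in the control.

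**Figure D4:**
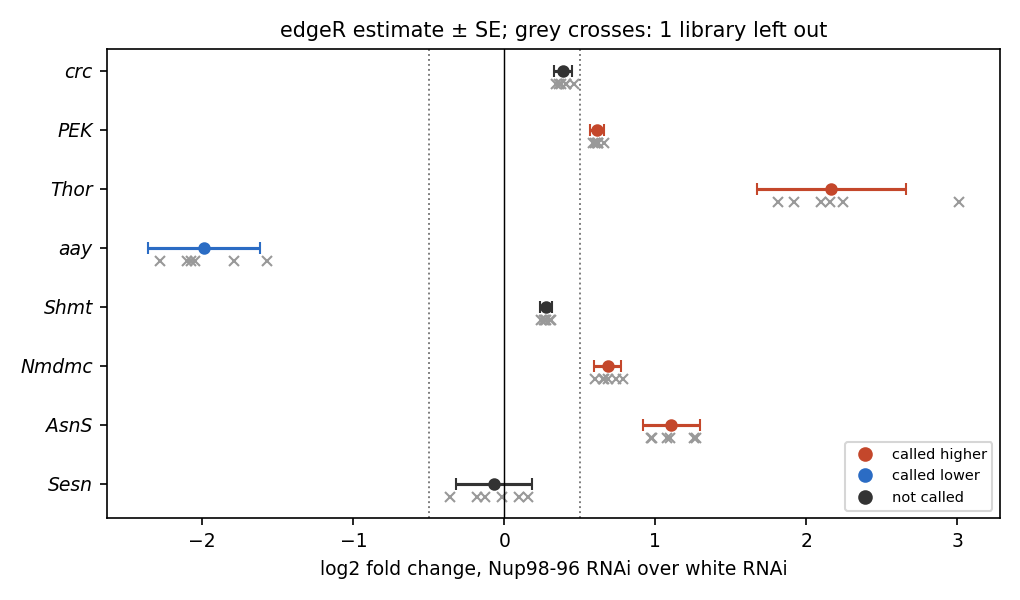
Log2 fold change of the 8 genes, *Nup98-96* RNAi over *white* RNAi, with the SE as error bar, red for called higher, blue for called lower and black for not called, and a grey cross for each fit with 1 library left out. Dotted lines mark the minimum fold change of 0.5; *Thor* reached 3.01 without control replicate 1, and *Sesn* lay on both sides of 0.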

How the data were processed

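The authors sequenced directional polyA libraries, aligned the reads and counted them per gene with featureCounts (Rsubread) without using strand, against a BDGP6 annotation, and deposited raw counts for all 6 libraries. FastQC, limma and edgeR 3.13.4 are named in the submitters' processing notes. A second deposited table holds log2 fold changes, average expression, moderated t, p-values, adjusted p-values and log-odds of the authors' own comparisons, and none of these was used, while its gene positions, which are no measurement, were. Every per-sample column was used.

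Genes were filtered by a rewritten Jaccard similarity filter (threshold 200 normalized counts, the upper end of the range of 1 to 200 searched, 7942 genes kept), scaled by TMM and tested with edgeR 4.0.16 (glmQLFit, glmQLFTest, two-sided, R 4.3.3) with Benjamini-Hochberg adjustment over all tested genes. A gene was kept if its highest normalized count exceeded the threshold, so a low level in the other group did not remove it. *aay*, *acs* and *Oat* passed through control libraries only. The SE is the log2 fold change over the square root of F. DESeq2 1.42.0 and limma-voom 3.58.1 were alternatives. The fit was tested on simulated data. Replicates of a group differed beyond sampling noise, so all 6 were kept apart.

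Exon lengths and overlaps came from a later Ensembl annotation of BDGP6. Where positions could be compared, 4779 of 4832 genes had identical positions. *AsnS* was matched by position because its identifier had changed. Protein and promoter sequences were not used here, and a planned count of promoter motifs was not run.

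The genes and the lists of related genes were chosen with earlier results of these data known. Named from each list were up to 2 called genes from the top and up to 2 from the bottom of its ranking by log2 fold change, and the 5 genes most correlated with *crc* (log2 of CPM + 0.5). Partner genes in ratios and other genes outside this rule were chosen after their values were seen. Alternatives were another scaling, filter or tool, no minimum fold change, a test against 0.5 (glmTreat), a replicate block and leaving out each library.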

Additional observations from a re-analysis of the deposited data

How the results depend on the processing

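*PEK*, *Thor*, *aay* and *AsnS* kept their direction and their call under all 16 alternatives, and *Nmdmc* under all but the test against 0.5 (log2 fold change 0.684, adjusted p = 0.0594, edgeR's glmTreat). With no minimum fold change *crc* (0.39, adjusted p = 0.00123) and *Shmt* (0.277, adjusted p = 0.00104) were called too. *Sesn* was called under none, and its log2 fold change ran from -0.362 to 0.156 with 1 library left out. It was 0.094 without control replicate 3 and 0.156 without *Nup98-96* RNAi replicate 2. Leave-one-out values ran from 0.342 to 0.462 for *crc*, 0.585 to 0.658 for *PEK*, 1.815 to 3.012 for *Thor*, -2.277 to -1.573 for *aay*, 0.242 to 0.311 for *Shmt*, 0.602 to 0.784 for *Nmdmc* and 0.973 to 1.27 for *AsnS*.

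Over all tested genes, the 2109 calls (1219 higher, 890 lower) became 3169 (1950 higher) with no filter on low counts and 5226 (2641 higher, 2585 lower) with no minimum fold change, and 1873 were higher with filterByExpr. Those filters tested more genes, 15021 and 10780. Among the other pathway genes, the 34 calls became 86 (49 higher, 37 lower) with no minimum fold change and 22 (9 lower) in the test against 0.5, which called none of *Xbp1*, *AhcyL2*, *Bhmt*, *CG10621*, *Gs2*, *P5CS*, *foxo*, *chrb* and *scyl*. With 1 library left out they ran from 28 to 37. With the replicate number as a block, 2076 genes were called, 2047 of them shared with the unblocked 2109, and *CG10621* (-1.643, adjusted p = 0.105) and *P5CS* (-2.193, adjusted p = 0.143) were not. Same-numbered libraries did not deviate together (correlations -0.167, 0 and 0.012, beside -0.176 to 0.212 for other pairs). No library correlated best with its own number. These correlations cannot tell whether same-numbered pools were prepared together. Of the 8 genes, counts were lowest for *aay*, *Thor* and *Sesn*, which had at least 124, 407 and 554 reads in a library.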
